A study of Mus musculus with 6 samples.

Results

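The integrated stress response (ISR) genes and the cytosolic tRNA synthetase genes of primary microglia (PM) were examined in RNA-seq count tables. The set held 45 genes, listed by symbol, out of 24411 genes in the tables, and each symbol matched 1 row. They were grouped by role into 5 regulators, 7 stress effectors and feedback factors, 10 enzymes of amino acid and one-carbon metabolism, 8 amino acid transporters, 3 genes for eIF2 kinases and their substrate eIF2α, and 12 cytosolic tRNA synthetases. Of 6 PM libraries, 3 came from cells given GSK-J4 (10 μM), a small-molecule inhibitor of the H3K27 demethylases JMJD3 and UTX, and 3 from cells given LPS (10 ng/ml) together with GSK-J4 (10 μM), both for 4-h. LPS is the bacterial ligand of TLR4. Both groups therefore carried the inhibitor, and untreated or LPS-only PM were not analysed here. Every difference below is that of LPS + GSK-J4 against GSK-J4 alone, and the action of GSK-J4 by itself was not measured. PM were shaken off mixed glial cultures prepared from pooled brains of neonatal ICR mice. The study describes the libraries of each treatment as biological replicates from independent RNA samples. The labels do not say whether they came from separate cultures, and if they did not, the p values measure only technical spread.

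In the ISR, kinases that sense different stresses phosphorylate eIF2α, which lowers general protein synthesis while translation of the transcription factor ATF4 rises. ATF4, with partners such as CHOP (the product of Ddit3) and the C/EBP proteins, switches on genes for amino acid synthesis, amino acid uptake and the charging of tRNAs by their synthetases. PPP1R15A (GADD34) brings a phosphatase back to eIF2α and so closes the loop, and TRIB3 restrains ATF4 and CHOP. Because ATF4 is set largely by translation, the mRNA levels given here do not measure ATF4 protein.

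Counts were scaled between libraries by edgeR's TMM factors and are given as CPM (counts scaled to a common library size), where 3 counts in a library corresponded to 0.673 to 1.24 CPM. The libraries held 2597505 to 3472716 fragments assigned to genes. Of these, the ribosomal RNA feature Rn45s took 25.6 ± 5.88% in GSK-J4 and 47.1 ± 1.15% with LPS added (SD, n = 3 each), so the second group was shallower outside rRNA. The 45 genes together held 0.842 to 0.863% of the counts outside ribosomal features in GSK-J4 and 0.777 to 0.840% in LPS + GSK-J4. Replicate 3 of each group stood apart, with a chi-square per degree of freedom of 5.81 to 12.5 against replicates 1 and 2. Replicates 1 and 2 gave 2.12 and 2.32 between themselves. Replicate 3 was the highest library for 21 of the 40 genes tested in GSK-J4 and for 23 in LPS + GSK-J4. The LPS response genes Tnf, Cxcl2, Ccl4 and Isg15 were all up-regulated, with summed levels of 128 to 171 CPM in GSK-J4 and 7586 to 7912 CPM in LPS + GSK-J4. Markers of microglia were the most abundant of the cell type lists in every library, with sums of 2441 to 2521 CPM in GSK-J4 and 1880 to 1928 CPM in LPS + GSK-J4.

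ATF4 with a C/EBP partner binds a composite DNA element, and its presence in the promoters was read first. Promoter windows of 300 bases, from 250 before to 50 after the start site, were taken from RefSeq (GRCm38.p6) and searched on both strands for the 9 letters TGATGNAAN, where N is any base. A window was on hand for 35 of the 45 genes, matched by symbol or its newer form. Of the 35, 13 (37.1%) held the element, compared with 4.5% of all 27025 genes with a window. The share was 2.72% of the 7788 tested genes with a window. The 45 genes were listed for the pathway that uses this element, so their share is a description and not independent evidence. By role the element was found in 5 of 8 synthetases, 2 of 5 regulators and 2 of 6 effectors. The enzymes held it in 2 of 8, the transporters in 2 of 5, and the kinase and eIF2α genes in 0 of 3. The stretches below are from the 4 genes with a match that had the lowest p in the expression test, and they show where the element lay next to the start site. They are written 5′ to 3′ along the gene, and capitals mark the element, which reads as written or, where it lay on the opposite strand, as the reverse complement NTTNCATCA.
Slc7a11 (chr3:50443614-50443733, minus strand, 120 bases before the start site): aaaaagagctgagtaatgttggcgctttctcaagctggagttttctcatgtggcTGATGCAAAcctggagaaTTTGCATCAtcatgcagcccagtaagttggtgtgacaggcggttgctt
Slc1a4 (chr11:20332710-20332833, minus strand, 120 bases before to 4 after the start site): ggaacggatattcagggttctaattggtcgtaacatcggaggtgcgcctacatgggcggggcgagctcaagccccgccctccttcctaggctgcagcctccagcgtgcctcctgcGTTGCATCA
Pck2 (chr14:55540146-55540265, plus strand, 120 bases before the start site): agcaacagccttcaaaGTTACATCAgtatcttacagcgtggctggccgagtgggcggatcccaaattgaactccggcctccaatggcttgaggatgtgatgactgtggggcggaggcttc
Trib3 (chr2:152344029-152344058, minus strand, bases 3 to 32 after the start site): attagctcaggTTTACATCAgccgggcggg
Slc7a11 carried 2 copies facing each other, beginning 66 and 48 bases before the start site. In Slc1a4 the element ran across the start site, and in Pck2 it began 104 bases before it. In Trib3 it began at base 14 counted from the RefSeq start site. The GENCODE gene, which ends at 152344032 on the minus strand, starts further downstream, so by GENCODE that element lies before the gene. Among the synthetases, Aars held 2 copies and Gars, Iars, Tars and Yars 1 each. Asns, the asparagine synthetase gene, held 1 beginning 23 bases before the RefSeq start site. The GENCODE gene, which ends at 7693254 on the minus strand, starts further upstream, so by GENCODE that element lies inside the gene. Start sites in this paragraph are those of RefSeq, while gene positions given below are those of GENCODE. A match of letters describes the sequence only, and binding was not measured.

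With LPS added, the mRNAs of 3 ISR regulators fell, that of the feedback phosphatase subunit Ppp1r15a rose, and 3 genes of amino acid supply rose. Of the 45 genes, 40 had enough counts to be tested. With the adjusted p limited to 0.01, 4 of the 40 were higher in LPS + GSK-J4 (Ppp1r15a, Phgdh, Slc7a11 and Slc1a4), against 8.42% of all 10133 genes tested, and 3 were lower (Atf4, Trib3 and Ddit3), against 5.46%. Of all genes tested, 13.9% passed in either direction, and 7 of the 40 (17.5%) did so here. The counts were near the shares of all genes, so they are not a result about the set as a whole. Of the 7, Ddit3, Phgdh and Slc1a4 lost the call in 1 or more alternative fits. At an unadjusted p under 0.05 there were 17 of the 40, against 34.8% of all genes. At the study's thresholds, which add a minimum log2-fold change of 1.5 in size, Ppp1r15a was the 1 gene called higher (2.95% of all genes) and 0 of the 40 were called lower (0.809%), with 3.76% of all genes called in either direction. The 3 libraries of one group lay wholly above those of the other for 12 genes that were higher (19.8% of all genes) and for 7 that were lower (18.4%), and overlapped for the other 21. The promoter element was present in 2 of the 4 genes that were higher (Slc7a11 and Slc1a4) and in 1 of the 3 that were lower (Trib3). The median log2-fold change of the 40 genes was 0.11, beside -0.00064 for all genes tested. Without replicate 3 of both groups, a setting chosen after the data were seen, 7 genes were higher and 5 lower, against 9.57% and 7.3% of all genes in that fit. Without GSK-J4 replicate 2 alone 2 were higher (5.74% of all genes), and without LPS + GSK-J4 replicate 3 alone 5 were lower (6.47%). In these bulk libraries, fewer cells of a type and less RNA per cell cannot be told apart.

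**Figure D1:**
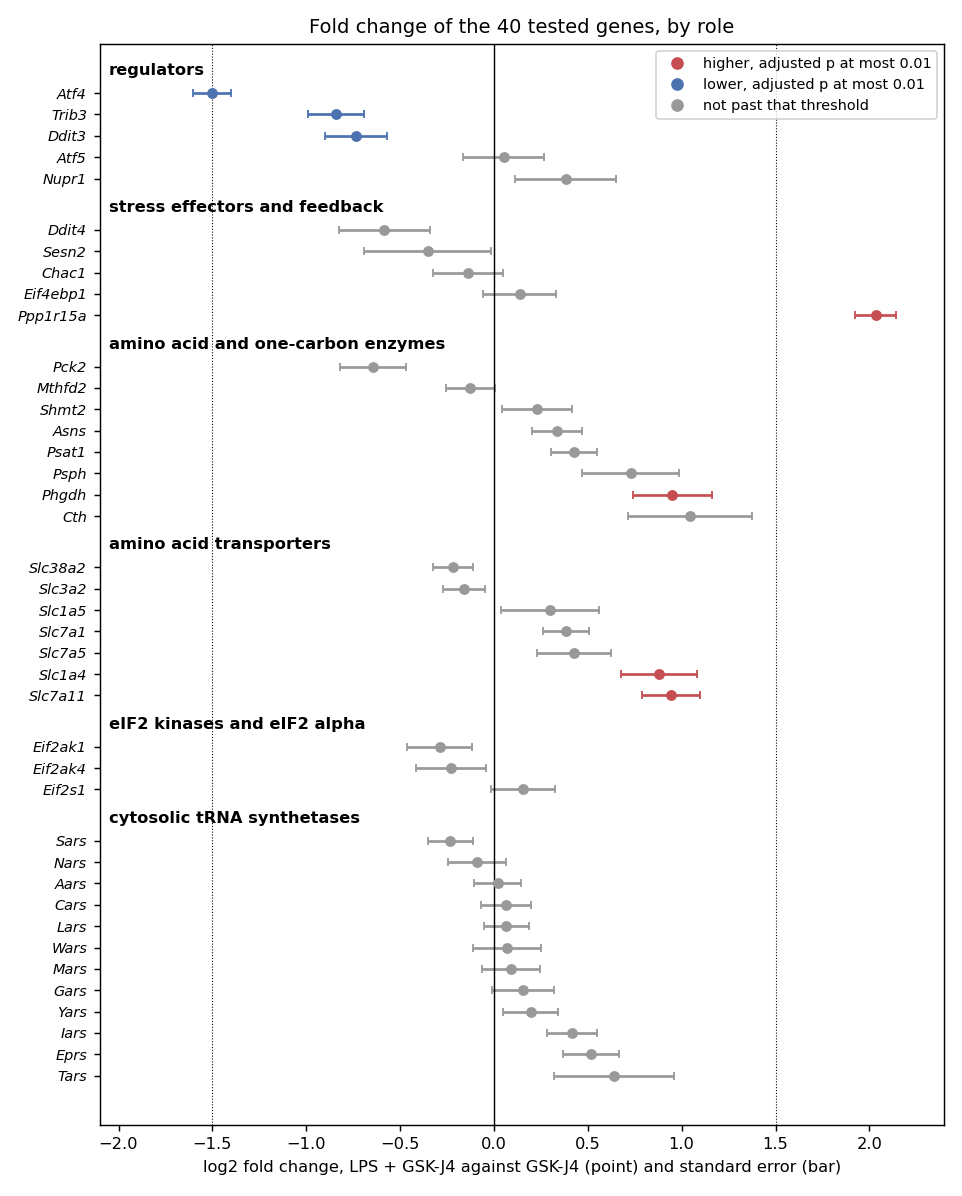
Log2-fold change (x axis) of LPS + GSK-J4 against GSK-J4 for the 40 tested genes, grouped by role, with points for the fitted values and bars for the standard error. Dotted lines mark a log2-fold change of 1.5 in either direction. Coloured points are the 7 genes whose adjusted p did not exceed 0.01, with Atf4, Trib3 and Ddit3 on the left and Ppp1r15a at 2.03 on the far right.

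Among the regulators, 3 of 5 were down-regulated, against 5.46% of all genes tested. Atf4 (chr15:80255184-80257541, plus strand, mm10), the central transcription factor, was measured at 1360, 1454 and 1371 CPM in the GSK-J4 libraries and at 498, 508 and 474 CPM in the LPS + GSK-J4 libraries. The groups were far apart, and the libraries of each lay close together. The mean was 1395 ± 51.4 CPM in GSK-J4 and 493 ± 17.8 CPM with LPS, a difference of -1.4999 ± 0.10 (SE) on the log2 scale with an adjusted p of 1.99e-08 (edgeR quasi-likelihood test). It missed the study's fold threshold by less than its SE and passed it with DESeq2, at -1.55. Ddit3 (chr10:127290774-127296288, plus strand), which encodes CHOP, was at 71.3, 64.0 and 82.9 CPM in GSK-J4 and at 36.3, 40.8 and 53.3 CPM in LPS + GSK-J4. Every LPS + GSK-J4 library was below every GSK-J4 library. The log2-fold change was -0.74 ± 0.17, with an adjusted p of 0.00381. This call was lost when GSK-J4 replicate 1 or 3, or LPS + GSK-J4 replicate 1 or 2, was left out, with adjusted p values from 0.0119 to 0.0307, while the direction held.

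Trib3 (chr2:152337422-152344032, minus strand), the pseudokinase that restrains ATF4 and CHOP and is itself one of their targets, had 78.8, 75.4 and 82.9 CPM in GSK-J4 and 42.9, 37.8 and 51.6 CPM in LPS + GSK-J4. The groups did not overlap, and GSK-J4 was 1.79-fold above LPS + GSK-J4 (log2-fold change -0.84 ± 0.15, adjusted p = 0.000544). Atf5, a bZIP factor that like Atf4 is controlled by translation, ranged from 66.7 to 102 CPM in GSK-J4 and from 62.8 to 122 CPM in LPS + GSK-J4. The top of that second range was replicate 3, the groups overlapped, and the adjusted p was 0.897. Nupr1, a small stress-induced chromatin protein, was near the low end of detection at 6.23 to 8.02 and 7.81 to 9.92 CPM, with an adjusted p of 0.339. Exons of Ddit3 share 68 bases with those of Mars on the opposite strand, and the counting by strand kept the 2 genes apart.

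**Figure D2:**
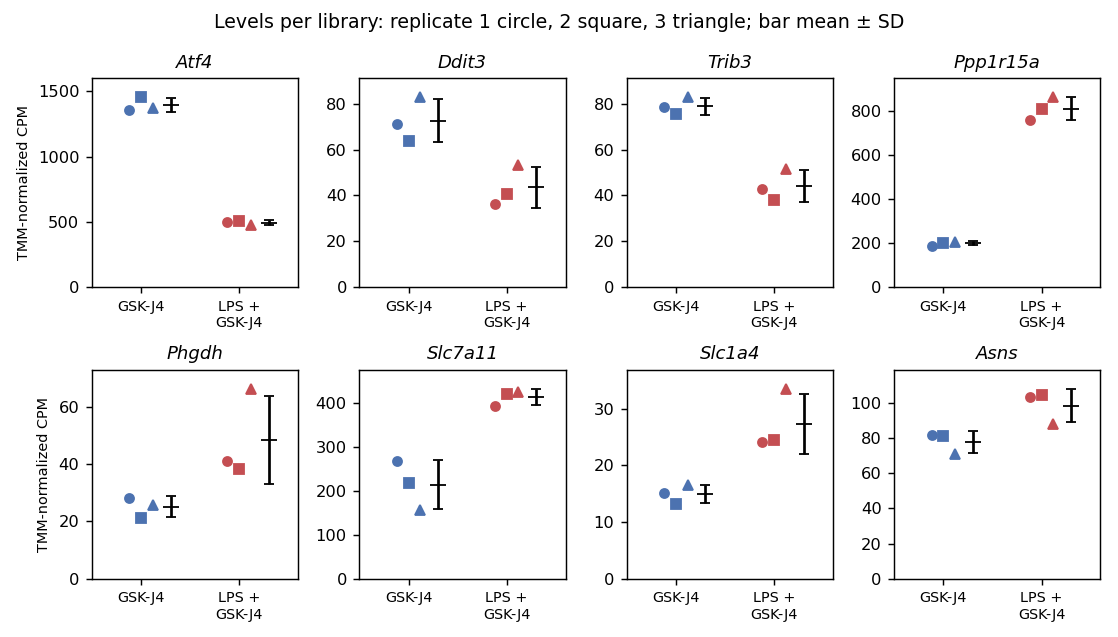
TMM-normalized CPM (y axis, from 0) of Atf4, Ddit3, Trib3, Ppp1r15a, Phgdh, Slc7a11, Slc1a4 and Asns in each library of the 2 groups, with replicates marked by circle, square and triangle and black bars for the mean ± SD of 3 libraries. The groups are separate in all 8 panels, with Atf4, Ddit3 and Trib3 lower and the others higher in LPS + GSK-J4. Over all genes tested 38.2% were separate. The Asns difference did not pass the test.

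Of the effectors and feedback factors, Ppp1r15a (chr7:45522916-45526268, minus strand) was the 1 gene of 5 tested that passed, against 13.9% of all genes in either direction. Its levels were 188, 201 and 206 CPM in GSK-J4 and 759, 811 and 863 CPM in LPS + GSK-J4. The lowest library with LPS was well above the highest without it. The mean rose from 198 ± 9.13 to 811 ± 52.2 CPM, 4.09-fold (log2-fold change 2.03 ± 0.11, adjusted p = 1.24e-09). Its log2-fold change stayed between 1.98 and 2.08 in every alternative fit and with each library left out. Ddit4 (REDD1), an inhibitor of mTORC1, had 44.6, 42.4 and 57.6 CPM in GSK-J4 and 19.9, 27.5 and 48.7 CPM in LPS + GSK-J4. The groups overlapped through the third LPS + GSK-J4 library, and the log2-fold change of -0.58 ± 0.24 had an adjusted p of 0.0993. Without that library it was -1.01 with an adjusted p of 0.000211. Sesn2, a leucine sensor that also acts on mTORC1, Chac1, which breaks down glutathione, and Eif4ebp1, a repressor of cap-dependent translation, had log2-fold changes of -0.35, -0.14 and 0.14 and overlapping groups. Vldlr, a lipoprotein receptor, and Stc2, a secreted glycoprotein, were below the filter, with 2 to 7 and 3 to 11 counts per library.

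Levels were also expressed per kilobase of merged exons, which pool all GENCODE transcripts of a gene and reach 18102 bases for Eprs. Ranks between genes are therefore approximate. On this scale Atf4 was the highest of the 45 genes in GSK-J4 at 592 ± 21.8 CPM per kb. It was followed by Slc3a2 at 202 ± 7.77 and Ppp1r15a at 67.5 ± 3.11 CPM per kb, and these levels were separated by far more than their SD. In LPS + GSK-J4 the order was Ppp1r15a at 276 ± 17.8, Atf4 at 209 ± 7.54 and Slc3a2 at 181 ± 21.05 CPM per kb. Atf4 and Slc3a2 lay closer there, and the ranges of their mean ± SD overlapped. Ppp1r15a thus moved from the third place to the first. The lowest of the set in both groups was Cbs, at 0.031 and 0.0712 CPM per kb, from at most 2 counts in a library.

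**Figure D3:**
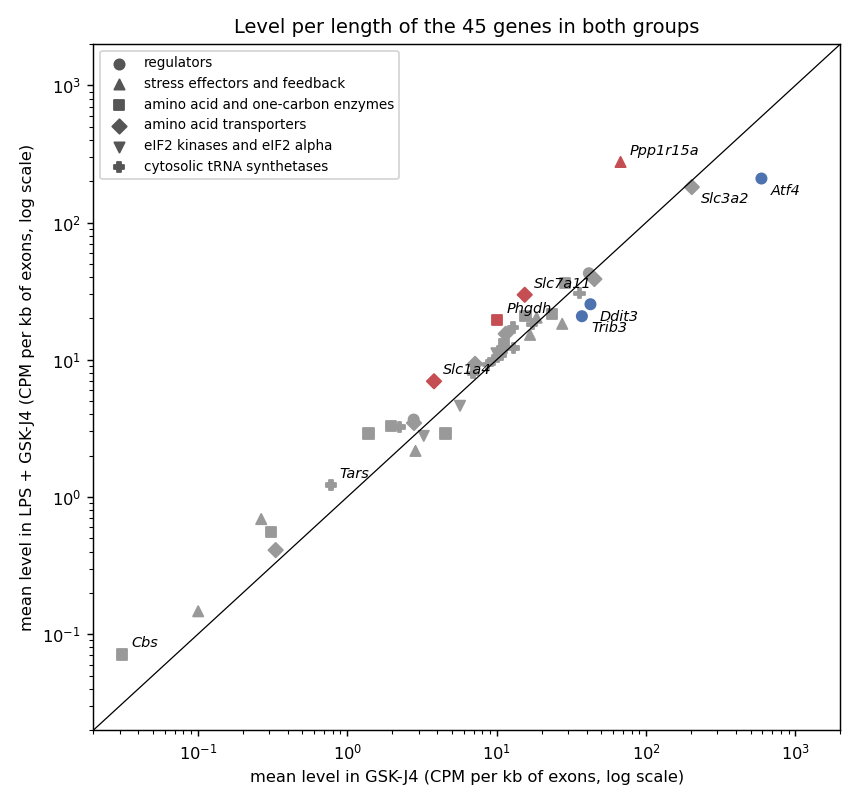
Mean level per kilobase of exons in GSK-J4 (x axis) and in LPS + GSK-J4 (y axis) for the 45 genes, both on log scales, with marker shapes for the roles and the line of equality. Genes whose adjusted p did not exceed 0.01 are coloured. Ppp1r15a stands above the line and Atf4 below it, at 67.5 to 276 and 592 to 209 CPM per kb, while most synthetases lie near it.

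Of 8 enzymes tested, 1 was up-regulated (8.42% of all genes). Phgdh (chr3:98313170-98339990, minus strand), the first enzyme of serine synthesis, was at 28.3, 21.1 and 25.7 CPM in GSK-J4 and at 41.0, 38.2 and 66.1 CPM in LPS + GSK-J4. The third LPS + GSK-J4 library was far above the others, and all of that group lay above the GSK-J4 libraries. The mean went from 25.0 ± 3.65 to 48.4 ± 15.4 CPM (log2-fold change 0.95 ± 0.21, adjusted p = 0.0035). It was lost without GSK-J4 replicate 2 (adjusted p = 0.0237), while without LPS + GSK-J4 replicate 3 the log2-fold change was 0.66 with an adjusted p of 0.00656. The next enzymes of the same route, Psat1 and Psph, had log2-fold changes of 0.43 (adjusted p = 0.02004) and 0.73 (adjusted p = 0.0504), neither past the threshold, and their groups did not overlap.

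Asns (chr6:7675169-7693254, minus strand), asparagine synthetase and a classic ATF4 target, was at 81.6, 81.5 and 70.8 CPM in GSK-J4 and at 103, 105 and 88.0 CPM in LPS + GSK-J4. The groups were separate by a small margin, and replicate 3 was the lowest of each. The log2-fold change was 0.34 ± 0.13 with an adjusted p of 0.0755. Pck2, the mitochondrial PEP carboxykinase, had 30.9 to 38.9 CPM in GSK-J4 and 20.99 to 25.2 CPM in LPS + GSK-J4, and its log2-fold change of -0.64 ± 0.18 missed the threshold at an adjusted p of 0.0147. Cth, the second enzyme of transsulfuration, had a log2-fold change of 1.04 ± 0.33 from 9 to 25 counts per library (adjusted p = 0.0306). Pck2 and Cth passed without LPS + GSK-J4 replicate 3, with adjusted p values of 0.00524 and 0.00664. Shmt2 and Mthfd2, which carry one-carbon units in mitochondria, were at 0.23 and -0.13 on the log2 scale with overlapping groups. Aldh1l2, of the same folate pathway, and Cbs, the first enzyme of transsulfuration, were below the filter with 5 to 16 and 0 to 2 counts per library.

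Of 7 transporters tested, 2 were up-regulated (8.42% of all genes). Slc7a11 (chr3:49892526-50443614, minus strand), the cystine-glutamate exchanger that feeds glutathione synthesis, was at 269, 219 and 156 CPM in GSK-J4 and at 393, 422 and 427 CPM in LPS + GSK-J4. The GSK-J4 libraries were spread widely and the LPS + GSK-J4 libraries closely, with no overlap. The mean went from 215 ± 56.4 to 414 ± 17.99 CPM (log2-fold change 0.94 ± 0.15, adjusted p = 0.000307). Slc1a4 (chr11:20302180-20332713, minus strand), a neutral amino acid exchanger that carries serine and alanine, was at 15.1, 13.2 and 16.5 CPM in GSK-J4 and at 24.2, 24.4 and 33.4 CPM in LPS + GSK-J4. Again the third LPS + GSK-J4 library was the highest. The log2-fold change was 0.88 ± 0.20 with an adjusted p of 0.00449. The call was lost with DESeq2 (adjusted p = 0.0182) and without GSK-J4 replicate 1 or 2 or LPS + GSK-J4 replicate 2 or 3 (0.0116 to 0.0342).

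Slc3a2, the heavy chain that both Slc7a11 and Slc7a5 need at the cell surface, ranged from 687 to 742 CPM in GSK-J4 and from 593 to 726 CPM in LPS + GSK-J4, with an adjusted p of 0.336. Whether it differed from Slc7a11 in its response was not tested. Slc7a5 (LAT1), the leucine carrier, and Slc7a1, a carrier of cationic amino acids, were at 0.43 (adjusted p = 0.138) and 0.38 (adjusted p = 0.0354) on the log2 scale. Slc38a2, a sodium-coupled carrier of small neutral amino acids, and Slc1a5, which exchanges glutamine, were at -0.22 and 0.30 on the log2 scale. Slc7a3, another cationic carrier, was below the filter with 1 to 10 counts per library.

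Some markers of other glia were also higher in LPS + GSK-J4. The summed level of 8 astrocyte markers was 51.2 to 56.5 CPM in GSK-J4 and 126 to 153 CPM in LPS + GSK-J4. Gfap, Aqp4 and Gja1 were higher past the same threshold. Slc1a2, Slc1a3 and Aldh1l1 did not pass, at log2-fold changes of 1.14, 0.69 and -0.16 with overlapping groups. Gjb6 and S100b had 0 to 4 counts. Of 8 oligodendrocyte lineage markers 4 were higher, with sums of 182 to 212 and 352 to 402 CPM, and Mog had 2 to 12 counts. Phgdh, Slc1a4 and Slc7a11 are also expressed by astrocytes, and the part of such cells in these differences was not tested. The sum of 6 mesenchymal markers was 80.1 to 281 CPM in GSK-J4 and 138 to 427 CPM in LPS + GSK-J4. In GSK-J4 this sum was highest in replicate 1, where 13 of the 40 tested genes were highest, against 21 in replicate 3. In LPS + GSK-J4 it was highest in replicate 3, where 23 of the 40 were also highest. Among the microglia markers, Csf1r and Cx3cr1 were lower, at log2-fold changes of -0.46 and -0.48. Tmem119, with 4 to 31 counts per library, was at -0.95 and did not pass. Atf4, Trib3 and Ddit3 were at -1.4999, -0.84 and -0.74, and the part of microglia number in these differences was not tested. Of 4 endothelial markers Cdh5 was higher and Cldn5 had 0 counts in all libraries, and of 5 neuronal markers Tubb3 was higher while Rbfox3, Snap25, Syt1 and Nefl had 0 to 5 counts.

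None of the 3 genes at the top of the pathway passed the test with edgeR (13.9% of all genes) or DESeq2. In edgeR 0 had an unadjusted p under 0.05 (34.8% of all genes). Eif2s1 (chr12:78861819-78887010, plus strand), which encodes eIF2α, was at 56.6, 51.4 and 39.965 CPM in GSK-J4 and at 58.2, 63.3 and 44.2 CPM in LPS + GSK-J4. Replicate 3 was the lowest in each group, and the groups overlapped. The log2-fold change was 0.15 ± 0.17 with an adjusted p of 0.569. Eif2ak1 (HRI), the kinase that senses heme and mitochondrial stress, and Eif2ak4 (GCN2), which senses uncharged tRNA, were at -0.29 (adjusted p = 0.25) and -0.23 (adjusted p = 0.417) on the log2 scale. These values are mRNA levels, and phosphorylation of eIF2α was not measured.

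None of the 12 cytosolic tRNA synthetases, the enzymes that load each tRNA with its amino acid, was called at an adjusted p of 0.01 in the edgeR fit without covariates, and 2 had an unadjusted p under 0.05 (34.8% of all genes). DESeq2 also called 0 of them, with 3.8% of all genes called higher and 3.15% lower in that fit. Their log2-fold changes ran from -0.23 (Sars, for serine) to 0.64 (Tars, for threonine) with a median of 0.08, and 10 of 12 were positive. The 2 nearest to the threshold were Eprs, for glutamate and proline, at 0.52 ± 0.15 (adjusted p = 0.0198), and Iars, for isoleucine, at 0.42 ± 0.13 (adjusted p = 0.0346). Eprs was at 43.9, 39.95 and 38.1 CPM in GSK-J4 and at 66.7, 51.9 and 56.6 CPM in LPS + GSK-J4, without overlap. Without replicate 3 of both groups it passed, at an adjusted p of 0.00981. Wars (chr12:108860030-108894174, minus strand), the tryptophan enzyme, which interferon is known to induce, was at 33.5, 29.0 and 27.5 CPM in GSK-J4 and at 26.9, 29.8 and 38.4 CPM in LPS + GSK-J4. The groups overlapped, and the log2-fold change of 0.07 ± 0.18 had an adjusted p of 0.822. Without LPS + GSK-J4 replicate 3 it was -0.088.

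The enzymes for alanine, cysteine, glycine, leucine, methionine, asparagine and tyrosine (Aars, Cars, Gars, Lars, Mars, Nars and Yars) lay between -0.09 and 0.20 on the log2 scale with overlapping groups. Some of the Aars exons, 14.3% of their bases, are shared with Exosc6 on the same strand, where fragments cannot be assigned to 1 gene. Per kilobase of merged exons, with the limit given above, Sars was the most abundant synthetase in both groups, at 35.9 ± 1.59 and 30.5 ± 3.19 CPM per kb. Tars was the least abundant, at 0.776 ± 0.159 and 1.22 ± 0.288. The summed level of all 12 was 735 to 760 CPM in GSK-J4 and 764 to 797 CPM in LPS + GSK-J4.

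**Figure D4:**
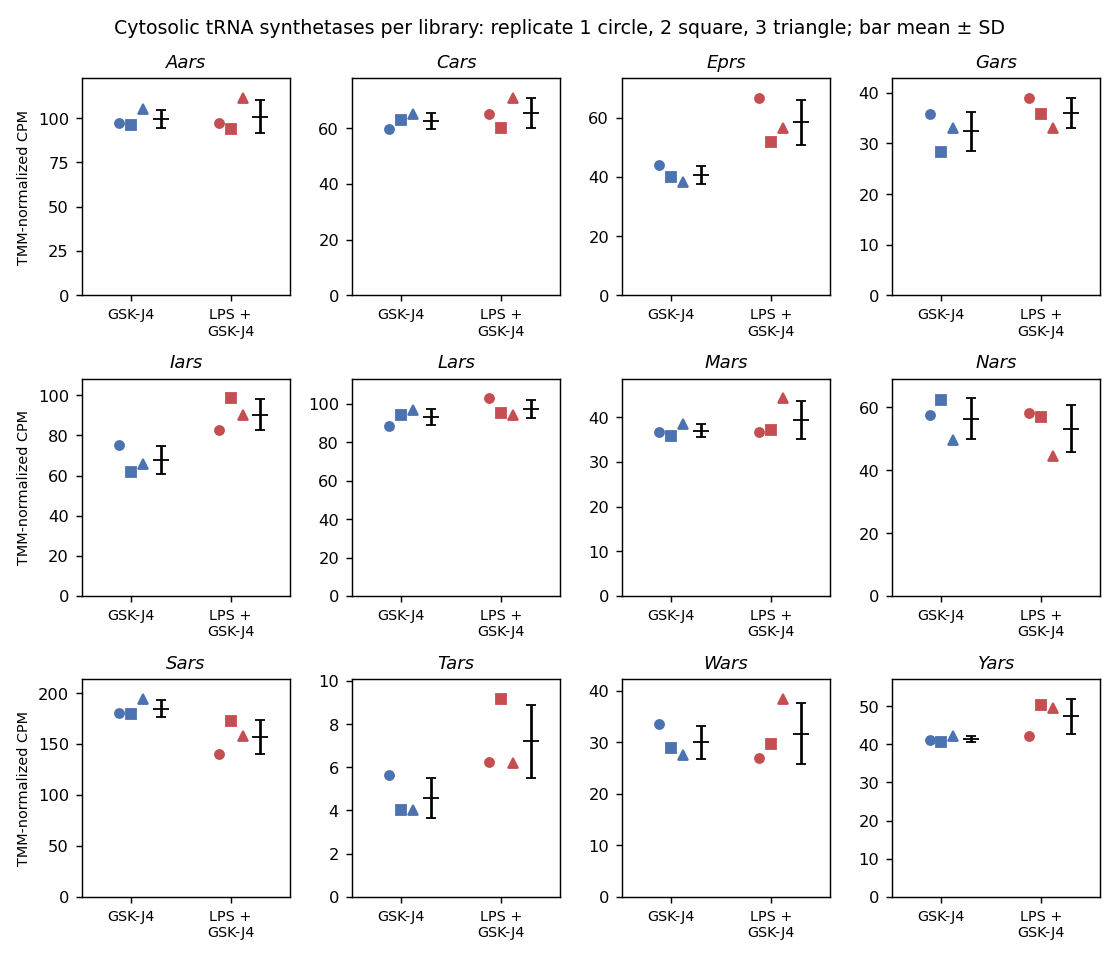
TMM-normalized CPM (y axis, from 0) of the 12 cytosolic tRNA synthetases in each library of the 2 groups, with replicates marked by circle, square and triangle and black bars for the mean ± SD of 3 libraries. The groups overlap in 8 panels, and over all genes tested 38.2% did not overlap. Eprs, Iars and Tars are higher and Sars is lower in all 3 LPS + GSK-J4 libraries, and none passed an adjusted p of 0.01.

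The rest of the pathway was 42 further genes, of which 40 were tested. At an adjusted p of 0.01, 0 were higher, against 8.42% of all genes tested. Those lower were 2, or 5%, near the 5.46% of all genes tested. Their median log2-fold change over the 40 was 0.10. DESeq2 gave 0 and 2, against 3.8% and 3.15% of all genes in that fit. In edgeR 10 of the 40 had an unadjusted p under 0.05 (34.8% of all genes). Impact, which restrains activation of GCN2, was at 110, 130 and 107 CPM in GSK-J4 and at 52.7, 55.3 and 31.4 CPM in LPS + GSK-J4. Its groups were far apart, at a log2-fold change of -1.31 ± 0.18 (adjusted p = 5.40e-05). Cebpg, a C/EBP partner of ATF4, was at 80.2, 84.2 and 73.3 CPM in GSK-J4 and at 46.8, 43.5 and 42.5 CPM in LPS + GSK-J4. Its groups were also separate, at a log2-fold change of -0.84 ± 0.14 (adjusted p = 0.000283). Both belong to the 15 other ISR genes, which include the kinases Eif2ak2 (PKR) and Eif2ak3 (PERK), the eIF2 and eIF2B subunits and the second phosphatase subunit Ppp1r15b, and the other 13 did not pass. The 8 remaining cytosolic synthetases, the 3 scaffold genes of the synthetase complex and the 14 mitochondrial synthetases tested gave 0 calls with either tool, and 3, 1 and 1 of them had an unadjusted p under 0.05.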

How the data were processed

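RNA-seq of PM was analysed in 6 libraries, grouped by the titles in the labels. The authors trimmed the reads with Trimmomatic, used STAR for alignment to mm10 and deposited the raw counts per gene, in unstranded, same-strand and reverse-strand columns without normalization. The annotation used for counting is not given in the sources used here. STAR counts only fragments that map to 1 place and overlap 1 gene. The reverse-strand counts, which match the directional kit, were used, without the 4 tally lines of each table.

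Counts were tested in R 4.3.3 with edgeR 4.0.16 and limma 3.58.1 (TMM factors, filterByExpr at 10 counts and 15 in total, robust quasi-likelihood test, no covariates) over 10133 genes, with Benjamini-Hochberg adjustment. The standard error is the log2-fold change divided by the root of F. Errors of levels are SD over 3 libraries, and with 3 against 3 the smallest exact permutation p is 0.1. The biological coefficient of variation was 0.133. The fits were also run on simulated counts with 1 common dispersion for all genes. Those counts lack the differences between replicates seen here, so they cannot show that the calls hold. DESeq2 1.42.0, its size factors, unstranded counts, other filters, removal of ribosomal features, a replicate block, an adjusted p of 0.05 and leaving out libraries were alternatives. The genes, roles, lists and alternatives were chosen with earlier results of these data known. Every one of the 45 genes is named, with values per library for those whose adjusted p did not exceed 0.01 and for Atf4, Ddit3, Asns, Eif2s1 and Wars. Values per library of Ddit4 and Eprs were added after they were seen. Gene positions and exons are from GENCODE for mm10. Figures were made in Python 3.11.15 with matplotlib 3.10.9.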

Additional observations from a re-analysis of the deposited data

Results flagged for a closer look

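Slc7a11 was flagged because fragments on the strand opposite to the gene, in the count column that no comparison used, were more abundant with LPS. Their mean level was 7.41 CPM in LPS + GSK-J4. The counts were 10, 11 and 5 in the GSK-J4 libraries and 14, 18 and 24 in the LPS + GSK-J4 libraries, without overlap. They made up 0.87 to 1.16% of the fragments of the gene on either strand in GSK-J4 and 1.37 to 2.27% in LPS + GSK-J4, beside 0.966 to 1.38% over all genes and libraries. The difference was not tested, and counts this low carry a wide counting error.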

How the results depend on the processing

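Up-regulation of Ppp1r15a and Slc7a11 and down-regulation of Atf4 and Trib3 passed an adjusted p of 0.01 in every alternative run. Of 559 fold changes recomputed for single genes, 517 kept their direction and call, 16 gained the call, 10 lost it and 16 changed sign. Atf4 decided the count of genes lower at the study's thresholds, 0 as reported and 1 with unstranded counts, DESeq2's size factors, the DESeq2 Wald test, no filter, or an adjusted p of 0.05 with a log2-fold change of 1, where 2 genes were higher. No filter gave 5 genes lower at an adjusted p of 0.01 (4.76% of all genes). An adjusted p of 0.05 gave 9 higher, and 2 of the other pathway genes. The share of all genes at these looser thresholds was not computed, so the counts cannot be set against it. Without replicate 3 of both groups, 7 genes were higher (9.57% of all genes), 5 lower (7.3%) and 1 other pathway gene higher. Leaving out each library in turn gave 2 to 4 genes higher (5.74 to 8.82% of all genes) and 2 to 5 lower (2.99 to 6.47%). At the study's thresholds 0 to 1 were lower, beside 79 to 100 of the 10323 to 10513 genes in those fits. The median ran from 0.029 to 0.19. With the replicate block, 8 genes were higher (12.4% of all genes, 8.42% without it), 5 lower (10%, 5.46% without it) and 1 other pathway gene higher. The block added the synthetases Eprs (0.52, adjusted p = 0.00136) and Iars (0.42, adjusted p = 0.00384), and Psat1, Slc7a1, Ddit4 and Pck2. Replicate numbers were not taken as pairs, since deviations of same-numbered libraries correlated at -0.01 to 0.30 and 3 of 6 libraries correlated best with their own number. The 0.30 was that of the replicate 3 libraries, which correlated at -0.29 to -0.058 with libraries of other numbers in the other group. The block turned no direction. The causes were not tested.

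Only genes that did not pass changed sign. Atf5 (0.05) was at -0.018 with unstranded counts, -0.0027 with DESeq2, -0.0031 with no filter, -0.12 without both replicates 3 and -0.30 to 0.23 with 1 library left out. Aars (0.021) was at -0.027 with DESeq2, -0.033 with no filter, -0.0086 without both replicates 3 and -0.056 to 0.070 with 1 library left out. With 1 library left out, Wars was at -0.088 to 0.17, Nars at -0.17 to 0.017 and Eif4ebp1 at -0.035 to 0.35, and Wars was at -0.13 without both replicates 3. With DESeq2 and with no filter, 18016 genes were fitted and the median of all genes was 0.13 and 0.12, above the medians of 0.11 and 0.10 of the 45 genes. Depth outside rRNA limits the genes under about 10 counts per library.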
